A study of Mus musculus with 12 samples.

Results

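Mitochondrial fatty acid oxidation was followed through 10 genes of the carnitine shuttle and the beta-oxidation spiral in jejunal epithelium of wild-type and POR-null mice fed a control or a quercetin diet. The members were every probe set of the Affymetrix 430A array whose annotated symbol was Cpt1a, Slc25a20, Cpt2, Acadvl, Acadl, Acadm, Acads, Hadha, Hadhb or Etfdh. All 10 genes were on the array, with 16 probe sets of the 22626 tested, and no member probe set was shared with another gene. For a gene with several probe sets, the one with the highest mean is the main one, and types that can cross-hybridise (names ending in _x_at or _s_at) were passed over where another existed.

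Long-chain fatty acids enter mitochondria as carnitine esters. Cpt1a forms the ester at the outer membrane and is the step blocked by malonyl-CoA, Slc25a20 carries it across the inner membrane in exchange for free carnitine, and Cpt2 returns it to coenzyme A. Acyl-CoA dehydrogenases of falling chain-length preference (Acadvl, Acadl, Acadm, Acads) then take off electrons, which reach the respiratory chain through electron transfer flavoprotein and its dehydrogenase Etfdh, and the trifunctional protein of Hadha and Hadhb carries out the remaining steps on long chains. Enterocytes handle large amounts of dietary fat, and the genes of this pathway include known targets of the fatty acid receptor PPAR-alpha.

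The 12 samples were 3 RNA pools in each of 4 groups: wild-type on control diet, wild-type on quercetin, POR-null on control diet and POR-null on quercetin. POR is NADPH-cytochrome P450 reductase, the electron donor of microsomal P450 enzymes, and quercetin is a plant flavonol. All mice were males of the C57BL/6 strain, 6 to 8 weeks old, adapted for 14 days to a soya-free powdered diet (RM3 (E)). The quercetin groups then received the same diet with 7 mg of quercetin per mouse (6.2 g per kg of diet), and tissue was taken after 24 hours. Each pool combined scraped epithelium from the middle portion of the small intestine of 3 mice, and mice were kept 3 to a cage. Pools average their mice, so the spread is between pools, and it is not stated whether the mice of a pool shared a cage. The labels do not say in which tissues POR is deleted or how, and POR itself was not analysed here, which leaves the genotypes unchecked at the targeted gene.

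All values are log2 probe set intensities as deposited. Array medians lay between 5.94 and 6.01, arrays of 1 group correlated at 0.991 to 0.995 and arrays of different groups at 0.989 to 0.995. Of 14 enterocyte markers, 12 were measured, and their mean log2 level lay between 12.35 and 12.61 in every pool; the villus gene Vil1 read 12.12 to 12.32 and the fatty acid binding protein Fabp2 13.48 to 13.72. Of 6 liver markers 5 were measured, with mean log2 values from 4.11 (Fgb) to 6.71 (Ttr) and 5.90 for albumin (Alb). Of 8 fat cell markers 6 were measured, from 4.14 (Adipoq) and 4.24 (Lep) to 6.90 (Retn), 7.50 (Cidec) and 8.69 (Lipe). Smooth muscle markers (9 of 10 measured, centred per gene over all pools) ranged from -0.23 to 0.03 in 9 pools and stood higher in pool 3 of wild-type control (0.62), pool 1 of POR-null control (0.40) and pool 1 of POR-null quercetin (0.14). T cell markers (12 of 13 measured, centred) were at -0.24 to -0.12 in the wild-type control pools and at -0.08 to 0.19 in all others. A score of distal minus proximal intestinal markers ran from -0.73 to 0.11 in wild-type control pools, -0.12 to 1.06 in wild-type pools on quercetin, 0.02 to 0.14 in POR-null control pools and -0.40 to 0.10 in POR-null quercetin pools. The part of these markers in the results was not tested beyond the fits given below with a covariate or without some pools.

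Most probe sets of the pathway lay lower in POR-null than in wild-type mice, by little at most steps and by more at Acadl and Slc25a20, and none passed the test over all probe sets. Averaged over both diets, the log2 difference was below 0 for 14 of 16 probe sets, against 50.3% of all probe sets, and the median of the 16 was -0.18 against -0.0017 for all. In the limma fit over all arrays, 0 of 16 passed an adjusted p of 0.05 (Benjamini-Hochberg over 22626), and 0% of all probe sets did. The smallest adjusted p of any probe set was 0.0554. At an unadjusted p under 0.05, 9 of 16 were lower, against 2.58% of all probe sets, and 0 were higher. Pools did not overlap within either diet, with POR-null lower, for 4 of 16 against 0.287% of all: the main probe set of Acadl, both of Slc25a20 and that of Etfdh. Such separation on both diets fixes the exact permutation p at 0.005 (two-sided, 400 relabellings within diets, not adjusted), the smallest it can give. For these 4 this p therefore restates the lack of overlap and adds no support. The members were chosen with these values known, so the counts describe them and are not independent evidence.

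**Figure D1:**
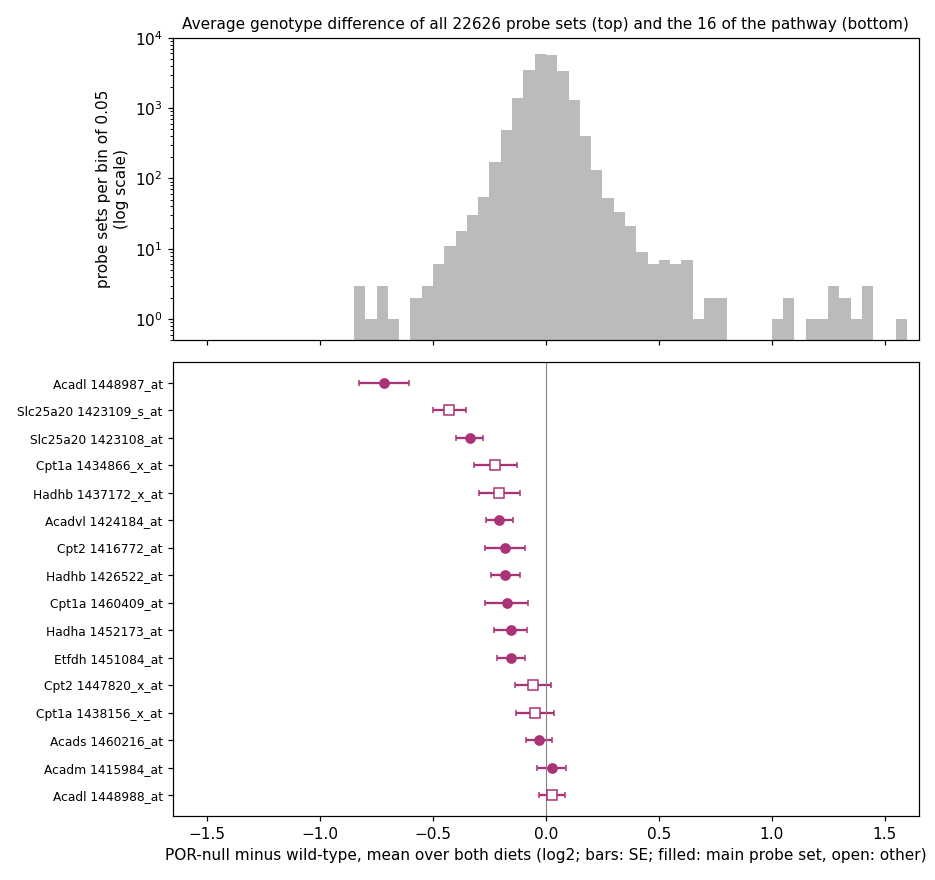
Top: number of probe sets (log scale) per bin of 0.05 in the average genotype difference, POR-null minus wild-type over both diets, for all 22626 probe sets. Bottom: the 16 member probe sets with their SE; Acadl at -0.72 and Slc25a20 at -0.43 and -0.34 lie farthest to the left, and 14 of 16 lie left of 0.

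Acadl, the long-chain acyl-CoA dehydrogenase, differed most. Its main probe set (1448987_at) read 9.79, 9.65 and 9.44 in wild-type control pools, 9.67, 9.16 and 9.29 in wild-type pools on quercetin, 8.51, 8.95 and 8.39 in POR-null control pools and 9.13, 8.81 and 8.91 in POR-null quercetin pools. Every POR-null pool lay below every wild-type pool, the highest POR-null value being 9.13 and the lowest wild-type value 9.16. The average difference was -0.72 ± 0.11 (SE, 6 against 6 pools; 95% interval -0.95 to -0.48), or 60.9% of the wild-type level, with a limma adjusted p of 0.0649. By unadjusted p it ranked second of all probe sets. On the control diet the difference was -1.01 ± 0.15 (interval -1.34 to -0.68), which left 49.7% of the wild-type level and ranked first of all probe sets, with a limma adjusted p of 0.226. With the mean of oxidative phosphorylation genes as a covariate it was -0.45, and over 23 alternatives it ran from -1.18 to -0.45, with adjusted p from 0.0396 to 0.845. On quercetin the difference was -0.42 ± 0.15 (interval -0.75 to -0.09), or 74.6% of the wild-type level. There it ranked 286 of all probe sets, with a limma adjusted p of 0.997. Over 23 alternatives it ran from -0.70 to -0.18, the latter with the mean of both Acadl probe sets.

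The call on the average Acadl difference over both diets turned on the settings of the test. It passed with a trended and robust variance (-0.72, limma adjusted p = 0.048), with array weights (-0.73, 0.0332) and after adding the segment score to the model (-0.76, 0.0182). It also passed without POR-null control pool 2 (-0.80, 0.034) or pool 3 (-0.66, 0.0265). Over all 22 alternatives the difference stayed below 0, from -0.80 to -0.34, with adjusted p from 0.0182 to 0.685; the smallest size came with the mean of oxidative phosphorylation genes as a covariate. The second Acadl probe set, 1448988_at, was dim, at 4.79 to 5.05 in all pools, and did not follow the first (r = 0.01 over 12 pools); its genotype difference was 0.03 ± 0.06. The mean of both probe sets differed by -0.345, and the Acadl result rests on 1 probe set.

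The 250 bases before the start of Acadl are given here because no other member differed as much between genotypes; they lie at chr1:66863310-66863559 on the minus strand of GRCm38.p6 (RefSeq), 5′ to 3′, all in lower case since none of the motifs searched below was found in them.
Acadl: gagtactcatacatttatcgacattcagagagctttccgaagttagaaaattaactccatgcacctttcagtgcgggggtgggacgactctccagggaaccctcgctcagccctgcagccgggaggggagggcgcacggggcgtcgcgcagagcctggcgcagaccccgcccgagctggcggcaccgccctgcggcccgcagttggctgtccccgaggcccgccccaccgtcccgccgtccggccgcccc

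In the other dehydrogenases the difference was smaller or not detectable. Acadvl, which acts on very long chains, read 9.47, 9.57 and 9.74 in wild-type control pools, 9.56, 9.59 and 9.44 in wild-type pools on quercetin, 9.34, 9.44 and 9.53 in POR-null control pools and 9.29, 9.27 and 9.26 in POR-null quercetin pools. The groups overlapped on the control diet and were apart on quercetin, where the POR-null pools spanned only 0.03. The average difference was -0.21 ± 0.06 (95% interval -0.34 to -0.08; limma adjusted p = 0.632). Acadm, the medium-chain enzyme, read 9.60 to 9.80 in the 6 wild-type pools and 9.59 to 9.93 in the 6 POR-null pools, so that the ranges coincided. Its average difference was 0.03 ± 0.06 with an interval from -0.11 to 0.16. Acads, the short-chain enzyme, averaged -0.03 ± 0.06 (interval -0.15 to 0.09), which joined 0.11 ± 0.08 on the control diet and -0.17 ± 0.08 on quercetin. Its pools overlapped on the control diet and not on quercetin, with 8.81, 8.93 and 8.96 in wild-type and 8.68, 8.74 and 8.77 in POR-null mice.

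Of the carnitine shuttle, the carrier Slc25a20 differed most, and both of its probe sets were lower in POR-null pools. The main probe set (1423108_at) read 8.83, 8.77 and 9.02 in wild-type control pools, 8.77, 8.86 and 8.88 in wild-type pools on quercetin, 8.65, 8.49 and 8.70 in POR-null control pools and 8.41, 8.48 and 8.37 in POR-null quercetin pools. All 6 POR-null pools lay below all 6 wild-type pools, and those on quercetin lay lowest. The average difference was -0.34 ± 0.06 (95% interval -0.47 to -0.21; 79.1% of the wild-type level; limma adjusted p = 0.0891).

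The other Slc25a20 probe set (1423109_s_at) read 7.08 to 7.34 in the wild-type pools, and 6.82, 6.79 and 7.11 in POR-null control and 6.62, 6.54 and 6.81 in POR-null quercetin pools. It differed by -0.43 ± 0.07 (limma adjusted p = 0.0891), and the 2 probe sets correlated at r = 0.89 over 12 pools (rho = 0.90), and at 0.36 within groups. On quercetin they differed by -0.42 ± 0.09 and -0.58 ± 0.10, with limma adjusted p of 0.401 and 0.373, and on the control diet by -0.26 ± 0.09 and -0.28 ± 0.10. Without POR-null control pool 3 both passed, at -0.36 (limma adjusted p = 0.0404) and -0.48 (0.00676), and with array weights the second did, at -0.45 (0.0414). That pool held the highest POR-null value on the control diet for both probe sets, and for Acadvl and Cpt1a, while it held the lowest Acadl value of all 12 pools.

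For comparison with Acadl, the 250 bases before the start of Slc25a20 lie at chr9:108661886-108662135 on the plus strand of GRCm38.p6 (RefSeq), again in lower case with none of the motifs searched.
Slc25a20: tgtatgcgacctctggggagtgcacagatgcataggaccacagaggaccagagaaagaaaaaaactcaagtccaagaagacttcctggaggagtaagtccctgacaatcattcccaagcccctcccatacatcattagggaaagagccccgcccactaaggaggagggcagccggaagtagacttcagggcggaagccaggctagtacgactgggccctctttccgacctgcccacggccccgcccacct

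For both carnitine palmitoyltransferases the genotype difference was below 0 with an interval that included 0. Cpt1a (1460409_at) read 8.15, 8.15 and 8.11 in wild-type control pools, 8.17, 8.18 and 8.51 in wild-type pools on quercetin, 7.74, 7.84 and 8.22 in POR-null control pools and 7.93, 8.13 and 8.37 in POR-null quercetin pools. Within the POR-null groups the pools were spread widely, and both overlapped the wild-type pools of their diet. The average difference was -0.17 ± 0.09 (95% interval -0.38 to 0.03). Its other probe sets were dim, with means of 4.54 (1434866_x_at) and 3.18 (1438156_x_at), and gave -0.22 ± 0.09 and -0.05 ± 0.08. Cpt2 (1416772_at) read 9.69, 9.89 and 10.16 in wild-type control pools, 9.58, 9.84 and 9.77 in wild-type pools on quercetin, 9.62, 9.75 and 9.73 in POR-null control pools and 9.36, 9.59 and 9.80 in POR-null quercetin pools. These groups overlapped on both diets, and the difference of -0.18 ± 0.09 had an interval from -0.37 to 0.01. The other Cpt2 probe set (1447820_x_at), with a mean of 6.06, gave a smaller difference of -0.06 ± 0.08. It correlated with the main one at r = 0.47 over 12 pools. Without the 3 pools high in smooth muscle markers, 1 of which holds the highest and 1 the lowest Cpt2 value, the Cpt2 difference was -0.043 and that of Cpt1a -0.078.

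**Figure D2:**
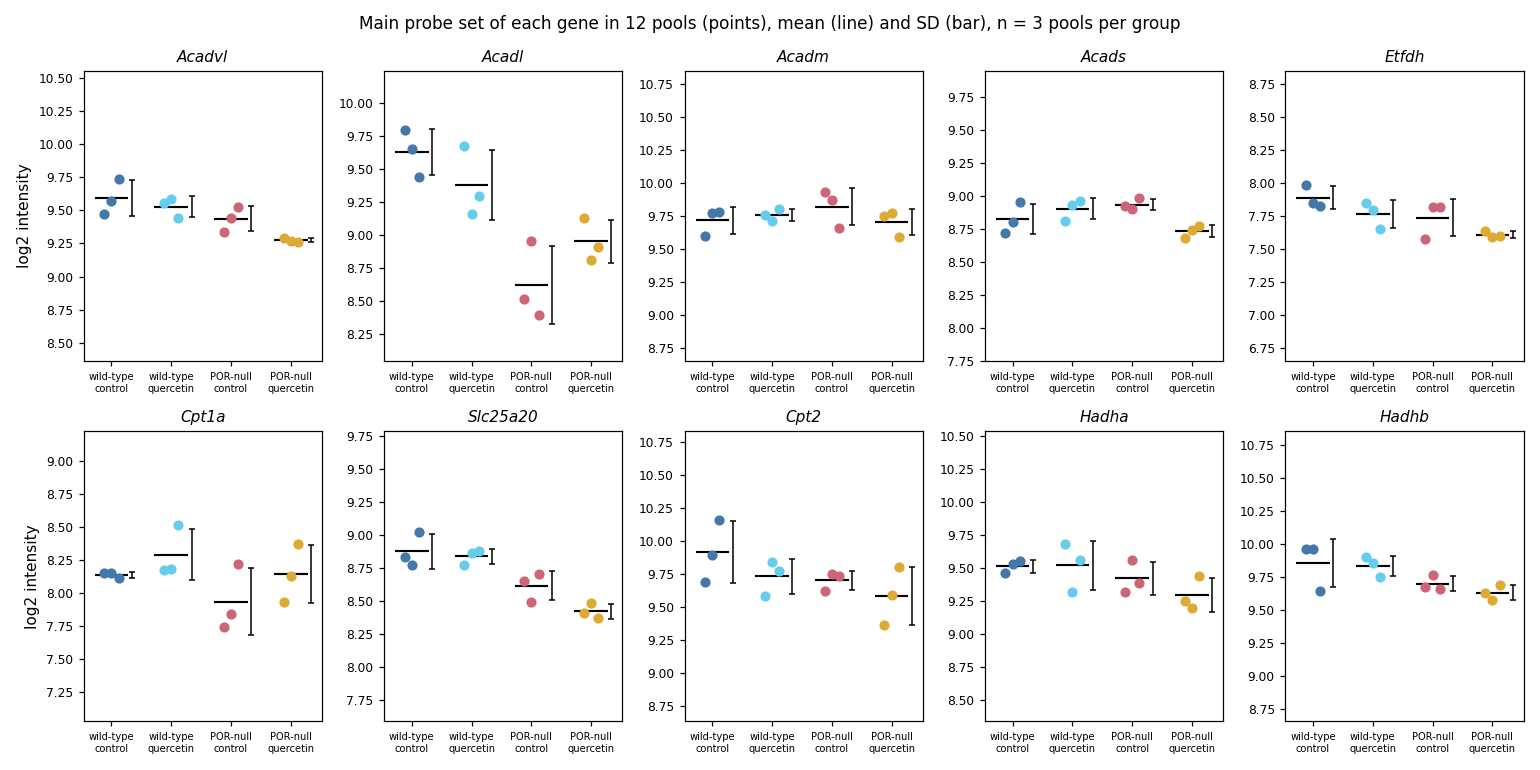
Log2 intensity (vertical axis, the same span in each panel, starting at different levels) of the main probe set of each gene in the 12 pools; points are pools, lines group means and bars SD, n = 3 pools per group. In Acadl and Slc25a20 all 6 POR-null pools lie below all 6 wild-type pools, while in Acadm the groups coincide.

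Hadha and Hadhb, the alpha and beta subunits of the trifunctional protein, both lay slightly lower in POR-null mice. Hadha read 9.46, 9.53 and 9.55 in wild-type control pools, 9.68, 9.32 and 9.56 in wild-type pools on quercetin, 9.32, 9.56 and 9.39 in POR-null control pools and 9.25, 9.20 and 9.44 in POR-null quercetin pools. Hadhb (1426522_at) read 9.96, 9.96 and 9.64, then 9.90, 9.85 and 9.75, then 9.67, 9.76 and 9.66, and 9.63, 9.57 and 9.69 in the same order of groups. By these main probe sets both genes overlapped between genotypes on the control diet; on quercetin Hadhb did not and Hadha did. The average differences were -0.16 ± 0.07 for Hadha and -0.18 ± 0.07 for Hadhb, with limma adjusted p of 0.994 and 0.869. The second Hadhb probe set (1437172_x_at) averaged -0.21 ± 0.09 and split the other way by diet: on the control diet it read 7.92 to 8.07 in wild-type and 7.62 to 7.80 in POR-null pools, without overlap, and on quercetin 7.54 to 8.01 and 7.38 to 7.85, with overlap. The subunits correlated at r = 0.54 over 12 pools and at 0.17 within groups.

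These genes are neighbours on chromosome 5 that point away from each other. In the RefSeq promoter table (GRCm38.p6) their starts lie 273 bases apart, Hadha at 30154980 on the minus strand and Hadhb at 30155253 on the plus strand. The windows from 250 bases before to 50 after each start share 228 bases. Windows of opposite strands overlap in this way for 2936 of 27025 genes in the table, or 10.9%. The stretch before Hadhb, chr5:30155003-30155252 on the plus strand, is shown because it belongs to both genes, with the shared bases in capitals.
Hadhb: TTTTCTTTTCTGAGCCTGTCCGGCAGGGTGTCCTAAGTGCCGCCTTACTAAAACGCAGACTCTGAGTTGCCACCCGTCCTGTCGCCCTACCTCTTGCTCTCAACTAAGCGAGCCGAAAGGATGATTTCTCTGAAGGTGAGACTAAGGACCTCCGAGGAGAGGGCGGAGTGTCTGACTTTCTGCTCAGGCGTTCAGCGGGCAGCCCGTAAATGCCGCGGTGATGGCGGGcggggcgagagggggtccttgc

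Etfdh, which passes electrons from the flavoprotein to ubiquinone, was the remaining gene whose pools did not overlap on either diet. It read 7.99, 7.85 and 7.83 in wild-type control pools, 7.85, 7.80 and 7.65 in wild-type pools on quercetin, 7.58, 7.82 and 7.82 in POR-null control pools and 7.64, 7.59 and 7.60 in POR-null quercetin pools. The margin was 0.01 on each diet. The average difference was -0.15 ± 0.06 (95% interval -0.29 to -0.02; limma adjusted p = 0.945), and it was -0.026 with the mean of oxidative phosphorylation genes as a covariate.

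The genotype difference was also read on each diet alone. On the control diet 0 of 16 probe sets passed the adjusted test, as did 0% of all, and 4 of 16 were lower at an unadjusted p under 0.05 against 2.85% of all. There 5 of 16 did not overlap, all lower in POR-null mice, against 4.29% of all. The median over the 16 was -0.18 (all probe sets: 0.01). On quercetin 0 of 16 passed the adjusted test, again with 0% of all, 6 of 16 were lower at an unadjusted p under 0.05 against 2.05% of all, and 7 of 16 did not overlap, all lower in POR-null mice, against 5.41%. The median was -0.16 (all: -0.01). Without Acadl, the main probe sets of the other 9 genes had a median of -0.17 over both diets, with 8 of 9 below 0.

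**Figure D3:**
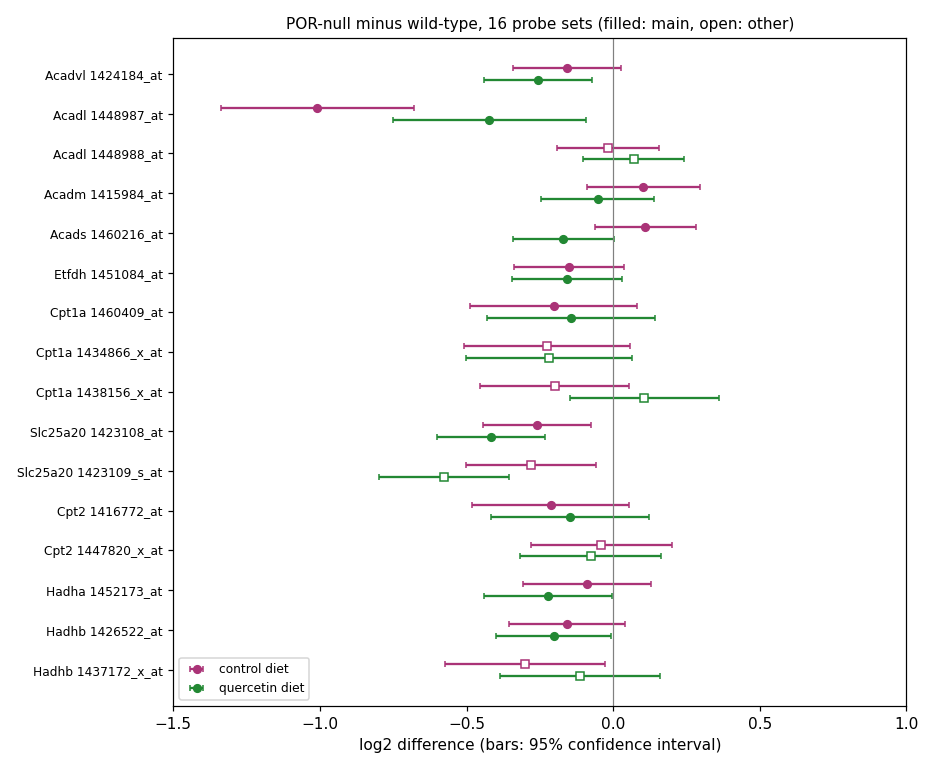
POR-null minus wild-type log2 difference (horizontal axis) of the 16 probe sets on the control diet and on quercetin; bars are 95% intervals of the limma fit, filled points the main probe set. The widest gap between diets is that of Acadl, at -1.01 and -0.42.

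Differences between the diets were smaller than those between genotypes for most members, and none passed the test. Averaged over genotypes, 0 of 16 passed the adjusted test, against 0.00884% of all probe sets. At an unadjusted p under 0.05, 0 were lower and 0 higher, against 3.85% and 3.96% of all, and the member median was -0.05 (all: 0.01). In wild-type mice 0 of 16 passed the adjusted test, against 0.0133% of all. There 1 of 16, the second Hadhb probe set, was lower at an unadjusted p under 0.05 (-0.28 ± 0.13; 4.16% of all), and 1 of 16, Cpt1a, had no overlap and was higher (6.99% of all). Cpt1a was 0.15 ± 0.13 higher on quercetin in wild-type mice and 0.21 ± 0.13 higher in POR-null mice, or 0.18 ± 0.09 over both (95% interval -0.02 to 0.38; limma adjusted p = 0.675), so a difference was not shown.

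In POR-null mice 0 of 16 passed the adjusted test on the diet, as did 0% of all probe sets. At an unadjusted p under 0.05, 3 were lower (1.98% of all), namely Acads at -0.20 ± 0.08 and the Slc25a20 probe sets at -0.19 ± 0.09 and -0.25 ± 0.10. Against 2.04% of all, 1 was higher, which was Acadl at 0.33 ± 0.15. Pools did not overlap for 3 of 16, all lower on quercetin, against 4.71% of all: Acads, Acadvl and the main probe set of Slc25a20. Acadvl differed by -0.16 ± 0.09. The member median was -0.10, against 0 for all.

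The test of whether the diet acted differently in the genotypes called 0 of 16 members and 0% of all probe sets. At an unadjusted p under 0.05 there was 1 higher (2.15% of all) and 1 lower (2.89% of all). The higher one was Acadl, whose quercetin difference was -0.25 ± 0.15 in wild-type and 0.33 ± 0.15 in POR-null mice, so that the gap between genotypes was 0.59 ± 0.22 smaller on quercetin (95% interval 0.12 to 1.05; limma adjusted p = 0.956). The lower one was Acads, at -0.28 ± 0.11 (interval -0.52 to -0.04; limma adjusted p = 0.956), with 0.08 ± 0.08 in wild-type and -0.20 ± 0.08 in POR-null mice. Both depended on the model: with the segment score added, the interaction was 0.12 for Acadl and -0.07 for Acads, and the wild-type difference of Acadl on quercetin turned to 0.11, or to 0.40 with the mean of oxidative phosphorylation genes added. The genotype and diet comparisons share their pools, so these values are not independent of those above.

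**Figure D4:**
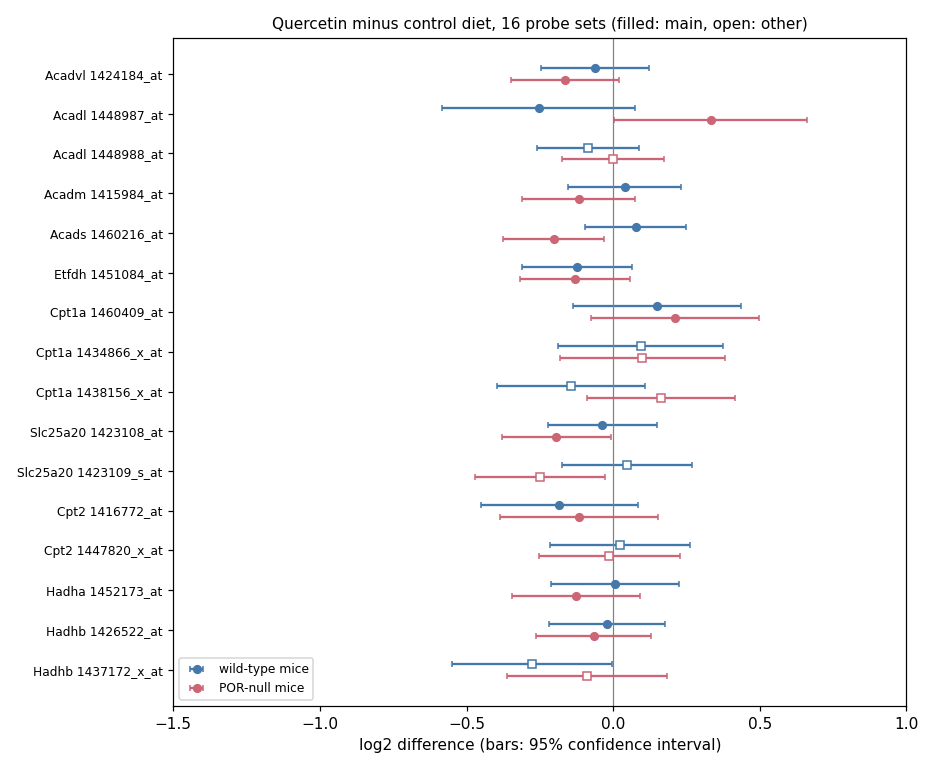
Quercetin minus control diet log2 difference (horizontal axis) of the 16 probe sets in wild-type and POR-null mice, with 95% intervals of the limma fit. Most intervals include 0; Acadl lies at -0.25 in wild-type and 0.33 in POR-null mice.

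Ordered by group mean, 8 of the 10 genes were lowest in POR-null mice on quercetin, and Acadl and Cpt1a were lowest in POR-null mice on the control diet. The highest mean was that of wild-type control in 6 genes, of wild-type quercetin in 2 and of POR-null control in 2. The mean of the 10 genes, each centred over the pools, was 0.10 to 0.15 in wild-type control pools, 0.06 to 0.11 in wild-type pools on quercetin, -0.14 to -0.03 in POR-null control pools and -0.16 to -0.09 in POR-null quercetin pools. By this mean the genotypes were apart on both diets. Without Acadl, POR-null control pools lay at -0.09 to 0.02 and wild-type control pools at 0.04 to 0.14.

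Across the 12 pools the members followed each other loosely. Of 45 pairs of genes 38 correlated above 0, with a median r of 0.35, and after removal of the group means 24 did, with a median of 0.02. Slc25a20 and Acadvl were close (r = 0.86), as were Hadhb and Acadl (r = 0.73). Acadl and Slc25a20, the genes with the widest genotype gaps, correlated at 0.49 over all pools and at -0.79 within groups, so that a pool low in one for its group tended to be high in the other. These correlations are descriptions over 12 pools that share their arrays and groups.

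Genes of oxidative phosphorylation, taken as a measure of mitochondrial content, moved with part of this pattern. The list, named for oxidative phosphorylation throughout, also holds the mitochondrial genes Cs, Tfam and Vdac1. Its main probe sets of Cox7c and Atp5c1 were dim, with mean log2 values of 3.30 and 4.92. Of 39 listed 37 were measured, and their centred mean was 0.10 to 0.15 in wild-type control pools, -0.07 to 0.02 in wild-type pools on quercetin, -0.05 to 0.03 in POR-null control pools and -0.08 to -0.06 in POR-null quercetin pools. Wild-type control pools alone were high, whereas the members were high in wild-type pools on both diets. The 10-gene mean correlated with this mean at r = 0.71 (rho = 0.76) over 12 pools. Averaged over diets, 33 of the 37 lay below 0 in POR-null mice, against 50.6% of all genes, with a median of -0.08 and 0 called. At an unadjusted p under 0.05, 8 of the 37 were lower and 0 higher, against 2.66% and 2.29% of all genes. With this mean as a covariate the average difference shrank to -0.34 for Acadl, -0.048 for Hadhb, -0.026 for Etfdh and 0.0088 for Hadha. It grew in size to -0.49 for Slc25a20, -0.29 for Cpt1a, -0.27 for Cpt2 and -0.12 for Acads. For Acadvl and Acadm it stayed within -0.24 to -0.15 and -0.0042 to 0.065, their ranges over all 22 alternatives. The member median was -0.14. In bulk RNA, fewer cells of a type and less RNA per cell cannot be told apart.

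**Figure D5:**
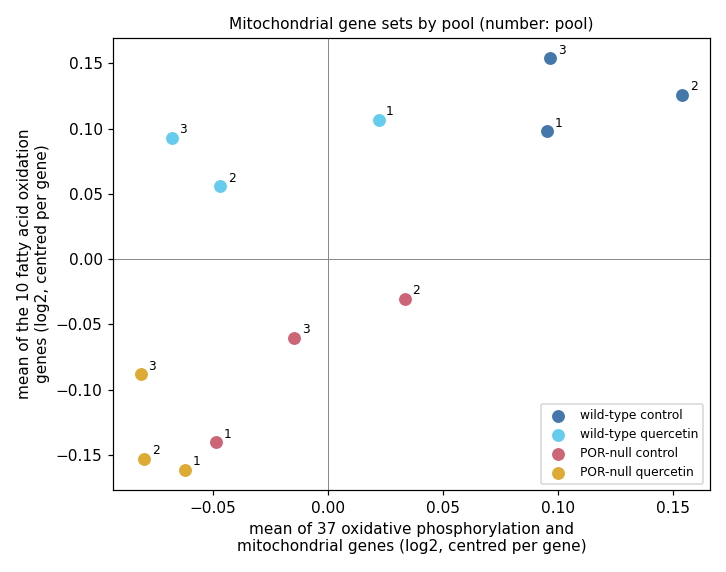
Mean of the 10 fatty acid oxidation genes (vertical axis) against the mean of 37 oxidative phosphorylation and mitochondrial genes (horizontal axis), both log2 and centred per gene, in the 12 pools, numbered within groups. Wild-type quercetin pools lie with the POR-null pools on the horizontal axis and with wild-type control pools on the vertical axis.

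The rest of the pathway showed no called gene in either direction in the genotype average. Of 19 other genes of mitochondrial beta-oxidation and related acyl-CoA steps, all measured, 11 lay below 0 with a median of -0.04. The 19 include the branched-chain acyl-CoA dehydrogenases Acadsb, Acad8 and Ivd. At an unadjusted p under 0.05, 5 of the 19 were lower and 0 higher. Of all genes 50.6% lay below 0, and 2.66% were lower and 2.29% higher at that p, so the number below 0 was near the background and the number lower at that p above it. Among them Acat1, the mitochondrial acetoacetyl-CoA thiolase, differed by -0.24 ± 0.06 (limma adjusted p = 0.505), the enoyl-CoA isomerase Eci2 by -0.19 ± 0.06, the isovaleryl-CoA dehydrogenase Ivd by -0.24 ± 0.09 and Etfa, a subunit of electron transfer flavoprotein, by -0.14 ± 0.06. Of 14 genes of fatty acid activation and carnitine supply, 10 were measured, with 3 below 0, a median of 0.03 and 0 at an unadjusted p under 0.05. The carnitine transporter Slc22a5 differed by -0.08 ± 0.06, and Bbox1 and Tmlhe, which make carnitine, by 0.24 ± 0.14 and 0.12 ± 0.07. Of the genes that set malonyl-CoA, 4 of 7 were measured, from -0.07 ± 0.06 for the decarboxylase Mlycd to 0.06 ± 0.06 for the carboxylase Acaca, with the carboxylase Acacb at -0.03 ± 0.11 and the kinase subunit Prkab1 at -0.04 ± 0.08 between them. The ketone body genes measured, 2 of 5, were Bdh1 at -0.10 ± 0.08 and Oxct1 at -0.03 ± 0.18.

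Of 11 regulators of these genes 10 were measured, 6 of them below 0, with a median of -0.03. Ppara, which encodes PPAR-alpha, read 6.44, 6.17 and 6.00 in wild-type control pools, 6.13, 6.25 and 6.17 in wild-type pools on quercetin, 5.84, 6.13 and 6.06 in POR-null control pools and 5.96, 5.55 and 5.86 in POR-null quercetin pools. The genotypes overlapped on the control diet and not on quercetin, and the average difference was -0.29 ± 0.09 (limma adjusted p = 0.65). The coactivator Ppargc1b differed by -0.09 ± 0.08 the lipogenic factor Srebf1 by 0.13 ± 0.10 and the oxysterol receptor Nr1h3 by 0.05 ± 0.10. Of 12 PPAR-alpha targets outside the pathway 9 were measured, 6 below 0 with a median of -0.03. Among them were the kinase Pdk4 at -0.40 ± 0.29, the fatty acid transporter Cd36 at 0.31 ± 0.20, Cyp4a14 at -0.07 ± 0.07, the fatty acid binding protein Fabp1 at -0.09 ± 0.13 and the thioesterase Acot1 at -0.08 ± 0.06. Cyp4a14 and Acot1 were dim, at 3.69 to 4.15 and 3.95 to 4.29 over all pools, so their values bear little on these genes.

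The promoter windows were searched on both strands for letters of nuclear receptor sites. A direct repeat of AGGTCA with 1 base between the copies, the form known for PPAR-alpha, was in 0 of the 10 member windows and in 13 of 32851 windows of the table (0.0396%), and TCAAGGTCA, the form known for estrogen-related receptors, in 0 of 10 and in 139 (0.423%). The hexamer AGGTCA, which both contain, was in 3 of 10 against 16.3% of all windows: in Acadvl at 87 to 82 bases before the start, in Cpt1a at 94 to 89 and in Acadm at 249 to 244 before it. The Cpt1a window, chr19:3323051-3323350, lies inside the annotated gene, which begins at 3322326. Its start is thus not the first base of that gene. A match is a description of letters and not of a site in use, and these windows leave out introns and more distant sequence. The 250 bases before Acadvl, chr11:70015429-70015678 on the minus strand of GRCm38.p6, are shown with the hexamer in capitals.
Acadvl: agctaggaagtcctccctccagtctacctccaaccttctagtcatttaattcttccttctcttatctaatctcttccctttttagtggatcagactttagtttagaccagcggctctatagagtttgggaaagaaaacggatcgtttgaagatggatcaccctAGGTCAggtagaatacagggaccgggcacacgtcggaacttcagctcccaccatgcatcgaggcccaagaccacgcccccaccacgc
Median GC content was 59.7% in the 10 member windows and 52.7% in all.

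The genes most like Acadl over the 12 pools, of 12392 others, were Luc7l3 (r = 0.91, rho = 0.94), Edrf1 (0.91, 0.84), Ubp1 (0.88, 0.88), Ccl25 (0.87, 0.89) and Mlxipl (0.86, 0.86). Ccl25 is a chemokine of the small intestine, and Mlxipl encodes the carbohydrate response factor ChREBP. Within groups their correlations with Acadl were 0.74, 0.49, 0.79, 0.73 and 0.58 in the order first given. They were picked as the 5 highest, so the values carry no test. No member of the pathway was among them. Edrf1 was dim, with a mean log2 level of 4.24, so its value bears little on the gene. The means of the others ran from 7.56 (Luc7l3) to 11.24 (Ccl25).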

How the data were processed

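The deposited values were log2 intensities per probe set that the authors had processed. MAS5 and RMA are both listed in the submitters' processing notes, with no role or version, and which one made these values is unknown. The values share a scale and were used without further normalization. The 64 control probe sets were left out. Group means were modelled for 22626 probe sets with limma 3.58.1 in R 4.3.3 (residual df 8, prior df 6.75), and 7 contrasts were adjusted by Benjamini-Hochberg over all probe sets at 0.05. Exact permutation tests were two-sided; 3 pools against 3 cannot go below 0.1 (20 relabellings). The fit was tested on simulated data. The number of arrays limits the precision, and p-values weigh a difference between groups against the spread between pools. The members, gene lists, markers and alternatives were chosen with earlier results of these data known. Text names all member probe sets; from each other list, any gene past the test, up to 3 with the smallest p for genotype and 2 for quercetin, plus Ppara; and the 5 genes most like the member with the smallest p. Of the probe sets, 20380 had 1 symbol, 691 several and 1555 none; all 10 members matched RefSeq by Entrez ID. Promoters are RefSeq windows (GRCm38.p6). Alternatives covered normalization, a filter on dim probe sets, the fit, weights, the block, covariates and left-out pools.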

Additional observations from a re-analysis of the deposited data

How the results depend on the processing

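The reported fit called 0 members in every comparison. For the genotype average the members called were 1 with trended and robust variance, 2 with array weights and 1 after adding the segment score to the model. All probe sets called were then 4, 20 and 5, with 4 under the oxidative phosphorylation covariate and 1 with the mean of all probe sets of a gene. With that covariate the median member difference was -0.14 for the genotype average, -0.076 on the control diet and -0.032 for quercetin in POR-null mice, and 1 probe set was called on the control diet, 7 for genotype on quercetin, 1 for the quercetin average and 0 for quercetin in wild-type mice. Without the 3 pools high in smooth muscle markers the median was -0.12 for the genotype average, -0.11 on the control diet, 0.0175 for quercetin in wild-type mice and -0.078 for the interaction, and 6 and 15 probe sets were called for the quercetin average and for quercetin in wild-type mice. With the segment score added the median was -0.20 for genotype on quercetin and -0.067 for quercetin in wild-type mice, where 0 probe sets were called, and 1 was called for the quercetin average. Quantile normalization gave 1 call for the quercetin average, a median of -0.014 there and of 0.022 for quercetin in wild-type mice, where median centring gave -0.065. A fit of only the arrays compared called 24 probe sets for genotype on quercetin, trended and robust variance 4 for the quercetin average, and the mean of all probe sets of a gene 5 for quercetin in wild-type mice. The cause of these moves was not tested.

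Leaving out each pool in turn, the members called ranged from 0 to 3 for the genotype average, from 0 to 1 on each diet, and were 0 for every quercetin comparison and the interaction. All probe sets called ranged from 0 to 47, 0 to 24 and 0 to 19 for the 3 genotype comparisons, 1 to 8 for the quercetin average, 0 to 23 in wild-type and 0 to 0 in POR-null mice, and 0 to 2 for the interaction. The member median ranged from -0.20 to -0.15 for the genotype average, -0.20 to -0.13 on the control diet and -0.24 to -0.15 on quercetin, and from -0.070 to -0.036, -0.045 to 0.0175 and -0.10 to -0.0575 for quercetin on average, in wild-type and in POR-null mice, and from -0.065 to 0.029 for the interaction.

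Pools with the same number in different groups showed no strong shared deviation. Of 18 such pairs the correlation ran from -0.14 to 0.19, 2 were above 0.1 and 3 were the best match. Deviations from means of 3 pools cannot show whether pools of the same number were handled together. With the replicate number as a block, 8 probe sets were called for quercetin in wild-type mice against 3 without it, and 0 members in any comparison. With 3 pools a group, the member differences near -0.2 were not called, and the dim probe sets of Acadl and Cpt1a bear little on their genes. Of the main probe sets, 7 kept the sign of the average genotype difference in all 22 alternatives, Hadha in 21, and Acadm and Acads in 20 each.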

Other observations

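Peroxisomal oxidation genes, which shorten very long chains before the mitochondrial steps, lay lower on quercetin in most cases. Of 15 listed 13 were measured, and in wild-type mice 13 of 13 lay below 0 on quercetin with a median of -0.25, while 5 were lower at an unadjusted p under 0.05 and 0 were called. Of all genes, 42.3% lay below 0 in this comparison and 4.37% were lower at that p. Other lists lay to 1 side of 0 in the same comparison, with 0 to 1 gene called in each: 37 of 37 oxidative phosphorylation genes lay below 0 (median -0.15), and 10 of 10 distal intestinal markers (median 0.39) and 12 of 12 T cell markers (median 0.26) above it. Their part in the peroxisomal values was not tested. In POR-null mice 9 of the 13 peroxisomal genes lay below 0 on quercetin and 4 above it, with a median of -0.13. Of all genes 50.2% lay below 0 there. At an unadjusted p under 0.05, 1 peroxisomal gene was lower, against 2.09% of all genes, and 0 were higher. Over both genotypes 12 of 13 lay below 0 on quercetin, against 43.8% of all genes, with a median of -0.13. There 5 were lower at an unadjusted p under 0.05, against 4.06% of all genes. For POR-null against wild-type mice 10 of 13 lay below 0, against 50.6% of all genes, with a median of -0.08. In that comparison 2 were lower at an unadjusted p under 0.05, against 2.66% of all genes. Ehhadh, the peroxisomal bifunctional enzyme, read 7.45, 7.47 and 7.25 in wild-type control pools against 7.14, 6.89 and 7.00 on quercetin, and 7.20, 7.30 and 7.36 against 7.11, 7.03 and 7.06 in POR-null mice. The diets did not overlap in either genotype, and the average difference was -0.30 ± 0.06 (limma adjusted p = 0.392).

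The peroxisomal thiolase Acaa1b read 8.45, 8.77 and 8.55 in wild-type control pools, 8.34, 7.26 and 6.80 in wild-type pools on quercetin, 7.37, 7.65 and 8.02 in POR-null control pools and 7.50, 7.33 and 7.38 in POR-null quercetin pools. Wild-type control pools were highest, followed by wild-type quercetin pool 1, which lay near them, and POR-null control pool 3. The quercetin difference was -1.12 ± 0.27 in wild-type mice (limma adjusted p = 0.3), where pools 2 and 3 carried it, and -0.28 ± 0.27 in POR-null mice (limma adjusted p = 0.995). The wild-type quercetin pools, from 1 to 3, had segment scores of -0.12, 0.67 and 1.06, and the part of this score in the Acaa1b values was not tested. Pex11a, a peroxisome division factor, differed between genotypes by -0.44 ± 0.13 on the control diet and -0.08 ± 0.13 on quercetin, and the racemase Amacr by -0.26 ± 0.14 and -0.15 ± 0.14. The limma adjusted p of Pex11a was 0.595 on the control diet and 0.997 on quercetin, and that of Amacr 0.829 and 0.997. Carnitine acetyltransferase, Crat, differed by -0.24 ± 0.08 on quercetin over both genotypes, and the carnitine transporter Slc22a21 by 0.18 ± 0.07, with limma adjusted p of 0.562 and 0.592. Slc22a21 was dim, at 4.89 to 5.44 over all pools, so its value bears little on the gene.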
